A study of Haematococcus lacustris with 7 samples.

Results

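In the assembled transcriptome of the green microalga *Haematococcus pluvialis* (listed as *Haematococcus lacustris* by its labels), 240 of 6812 annotated sequences (3.52%) carried a Gene Ontology (GO) term for protein folding. GO is a fixed vocabulary that describes a protein by molecular function, biological process and cellular component. The members are all identifiers listed with a term name that contains protein folding, protein refolding, chaperonin or peptidyl-prolyl cis-trans isomerase. The members were found by these words only and not by any measured level.

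A culture of a single strain in logarithmic growth was divided into 7 aliquots. The control (N) received no hormone, and the others received jasmonic acid (JA) or salicylic acid (SA) at 25 mg/L and were sampled after 1, 6 and 24 h, with 1 library per condition. The aliquots shared the strain, the medium and the light and dark cycle. The deposited table annotates 1 assembly of these libraries and holds 0 columns with values per sample. How the folding sequences responded to JA or SA, their level in the control and the depth of each library were thus not analysed here. All values below are counts of annotated sequences. They describe 1 table, so they have no spread between replicates, and no test was made.

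Newly made proteins, and proteins unfolded by heat or oxidation, expose surfaces that stick together. Chaperones bind such surfaces and release the protein when it can fold, mostly by binding and splitting ATP. Hsp70 proteins work with J-domain partners that bind Hsp70 and bring it unfolded chains. Hsp90 proteins act later on partly folded clients, and chaperonins enclose a chain in a ring. Folding catalysts speed up slow steps. Prolyl isomerases turn the bond before a proline, and protein disulfide isomerases rearrange disulfide bonds. In a green alga these systems work in the cytosol, the endoplasmic reticulum, the mitochondrion and the chloroplast. The table gives GO terms and no gene names, so the members are described by their terms, and no sequence is assigned to a chaperone family.

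The word rule found 5 different terms. Protein folding was listed for 230 members, and for 159 of these it was the only one of the 5. Peptidyl-prolyl cis-trans isomerase activity was listed for 58 members and chaperonin-containing T-complex for 13. All of these were also listed with protein folding, so neither term added a member. Protein refolding, the recovery of an already misfolded chain, was listed for 9 members, and none of the 9 was also listed with protein folding. The remaining member, comp64354_c0_seq1_37, entered through chaperone mediated protein folding requiring cofactor, a term listed for 1 sequence in the table. The folding vocabulary was therefore nearly that of a single term, with a small separate group for refolding.

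The members came from 227 Trinity components, which are the groups of related contigs that the assembler builds. In 220 components there was 1 member. The other 7 components held 20 members, with 4 members in 3 components and 2 members in 4 components. In each of these 7 components the members had identical terms, so the additional sequences repeated an annotation and did not add a different one. The 4 members of comp63982_c0 were listed with the T-complex and the nucleus. The 4 members of comp64089_c0 were cytoplasmic prolyl isomerases by their terms, and the 4 members of comp65277_c0 were listed with heat shock protein binding and response to unfolded protein. Sequences of a component may be variants of 1 transcript. The counts and percentages given here are of sequences, so each such variant is counted, and the counts are not numbers of independent genes.

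Most members were divided by 3 molecular functions that the table lists beside the folding terms. Unfolded protein binding, the basic activity of a chaperone, was listed for 167 members (69.6%) and for 6 of the 6572 other sequences (0.0913%). Thus, 96.5% of all sequences with this term were folding members. Isomerase activity, taken as any term name with these words, was listed for 59 members (24.6%) and 47 others (0.715%). Of these 59, 58 had peptidyl-prolyl cis-trans isomerase activity, a term of the word rule. No other sequence could have this term, so the difference in share is largely set by the rule. The term named isomerase activity itself was listed for 0 members. Heat shock protein binding, the docking on a heat shock protein, was listed for 40 members (16.7%) and 12 others (0.183%).

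Isomerase activity stood largely apart from the binding functions, whereas 38 of the 40 members with heat shock protein binding were also listed with unfolded protein binding. Unfolded protein binding without the other functions was listed for 129 members (53.8%), isomerase activity without the others for 57 (23.8%), and heat shock protein binding with unfolded protein binding for 38 (15.8%). Heat shock protein binding and isomerase activity met in 2 members. Unfolded protein binding and isomerase activity were listed together for 0 members and 0 other sequences, so these functions were listed for separate sets of sequences. The other 14 members (5.83%) had none of these functions.

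**Figure D1:**
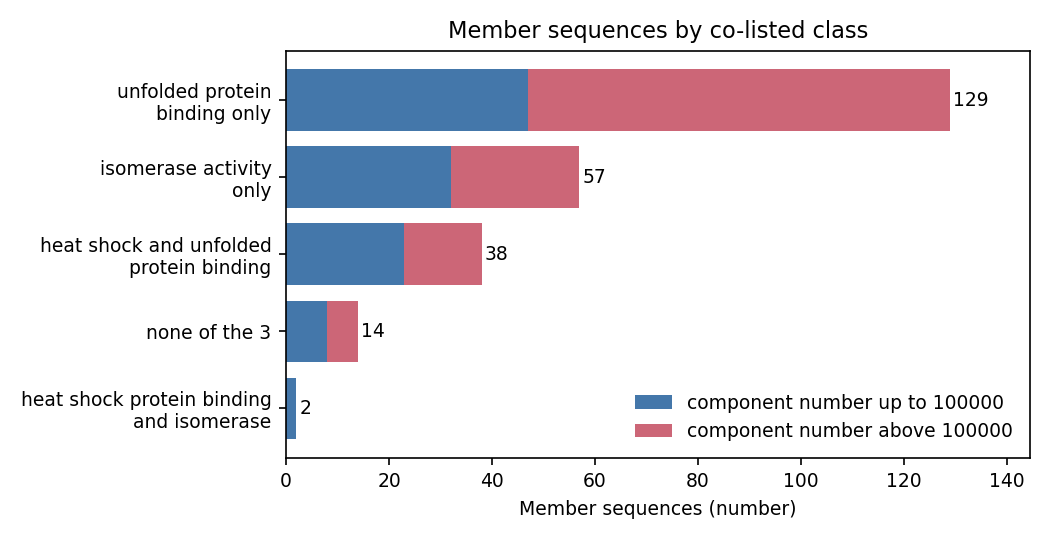
Number of member sequences (x axis) in each class of co-listed molecular function (y axis), with the total beside each bar. Colours divide the sequences at Trinity component number 100000, and unfolded protein binding without the other functions holds 129 sequences, 82 of them above that number.

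ATP binding, which is needed for the cycle of most chaperones, followed the same division. It was listed for 157 members (65.4%) and for 26.8% of the other sequences. Of the 129 members with unfolded protein binding only, 120 were listed with ATP binding, compared with 24 of the 38 that also had heat shock protein binding and 13 of the 14 without any of these functions. None of the 58 prolyl isomerases was listed with ATP binding. As background, these enzymes are known as catalysts that need no ATP. The 9 members with unfolded protein binding but neither ATP binding nor heat shock protein binding were all listed with calcium ion binding and sugar binding.

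The complete set of terms of a sequence, called its profile here, was often shared. The 240 members had 85 different profiles. A profile was shared with at least 1 other member by 196 members (81.7%), compared with 68.4% of the other sequences that shared a profile among themselves. Counting only sharing between different Trinity components gave 178 members (74.2%) and 60.9% of the others. The members were chosen through a few shared terms, whereas the others cover all other functions and are a much larger set. A higher share among the members is therefore partly built in. The 5 most frequent profiles took up 94 members (39.2%). In contrast, 44 members had a profile of their own.

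The most frequent profile, with 40 members in 40 components, was ATP binding, cytoplasm, protein folding and unfolded protein binding. It is the plainest description of an ATP-dependent cytoplasmic chaperone and names no family. Its nearest relatives differed by the term response to stress. With response to stress in place of cytoplasm the profile was found in 16 members, and with both terms in 12 members. A further 8 members had the first profile with protein refolding in place of protein folding. These profiles were found in as many components as members, so they did not come from variants of the same component.

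The second most frequent profile had 8 terms. It was found in 18 members from 18 components and joined heat shock protein binding, unfolded protein binding, ATP binding, metal ion binding, response to heat, DNA replication, cytoplasm and protein folding. In *Escherichia coli*, the J-domain protein DnaJ binds zinc and takes part, with the Hsp70 protein DnaK, in the heat response and in the replication of phage and plasmid DNA. The 18 members were all the folding members listed with DNA replication, out of 64 sequences with that term in the table. None of the 46 others was listed with heat shock protein binding. Whether these sequences act in DNA replication in the alga cannot be read from the table.

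**Figure D2:**
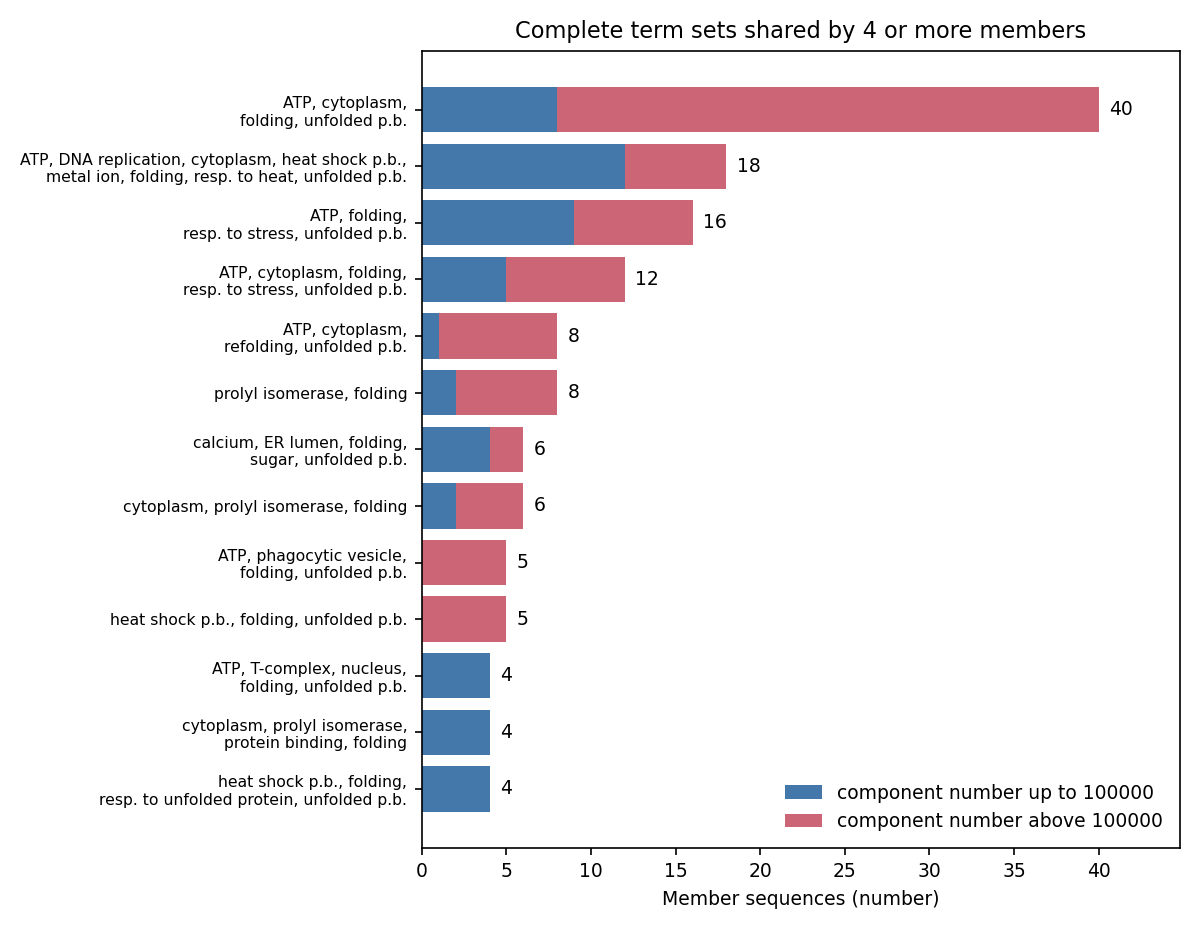
Number of member sequences (x axis) with each complete set of terms that 4 or more members shared (y axis; p.b. stands for protein binding, resp. for response, ATP for ATP binding, metal ion, calcium and sugar for binding of these, folding and refolding for protein folding and protein refolding). The set of ATP binding, cytoplasm, folding and unfolded protein binding held 40 members from 40 components, 32 of them above Trinity component number 100000. The 3 sets with 4 members each lay below it, and each of these sets came from 1 component.

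J-domain partners of Hsp70 are known for heat shock protein binding. The 40 members with this term had several kinds of profile. Besides the 18 above, 6 more were listed with ATP binding, metal ion binding and response to heat, and were placed in the plasma membrane or a membrane. No cellular component of another kind was listed for these 6. Of the 14 members with heat shock and unfolded protein binding but no ATP binding, 6 were listed with response to unfolded protein, and 4 of those 6 were from the single component comp65277_c0. Another 5 had no terms beyond protein folding and these functions, and 2 were placed in the endoplasmic reticulum as integral membrane proteins. The 2 members with heat shock protein binding and prolyl isomerase activity were both cytoplasmic, and 1 of them was the only sequence in the table with cyclosporin A binding, the property of the cyclophilin family.

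The chaperonin-containing T-complex is the ring-shaped chaperonin of the eukaryotic cytosol, known for the folding of actin and tubulin. Its 13 members came from 10 components, and all were listed with ATP binding, protein folding and unfolded protein binding. The term cytoplasm was listed for 0 of them. The nucleus was listed for 6, of which 4 were from the component comp63982_c0. Among these 6, comp357109_c0_seq1_5 was also listed with tubulin complex assembly. Of the 7 members without the nucleus, 2 had no further term. The member comp379021_c0_seq1_6 was listed with the mitochondrion and identical protein binding, and comp18441_c0_seq1_3 with nuclear heterochromatin and pericentriolar material. Terms for prefoldin, the complex that hands chains to this chaperonin, and for the bacterial type GroEL complex were listed for 0 sequences of the table. Absence of a term does not show that the transcript was absent.

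Prolyl isomerase activity was listed for 58 members from 51 components. The annotation of some was brief, and 8 members had no term beyond this activity and protein folding. For 12 members no cellular component was listed, and the others were spread over many places. Cytoplasm was listed for 18 members, and terms of the nucleus list for 13. Of these 13, 2 were placed in the nucleolus and 2 in the spliceosomal complex with RNA splicing and mRNA processing. Another 1 entered only through the process term nuclear transport. RNA binding was listed for 3 prolyl isomerases, which were all the folding members with that term, and calmodulin binding for 3. Peptide binding was listed for 12 members, all of them prolyl isomerases, out of 17 sequences in the table.

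Among the members, the space inside the photosynthetic membranes was listed with prolyl isomerases and with no other class. Chloroplast thylakoid lumen was listed for 7 members from 5 components, and all 7 had prolyl isomerase activity. They made up 46.7% of the 15 sequences with this term in the table. Of these, 2 sequences of the component comp62209_c1 were also listed with photosystem II assembly, a term with no other sequence in the table. The member with the most terms, comp1385131_c0_seq1_2 with 18, was a prolyl isomerase as well. Its terms named the stroma, the envelope and the thylakoid of the chloroplast, the apoplast and the cytosolic ribosome, and the responses to oxidative stress, salt stress, light intensity and abscisic acid.

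Compartments were assigned by words in the term names. Cytoplasm was listed for 105 members (43.8%), compared with 17.4% of the other sequences. For 97 members (40.4%) it was the only cellular component term, compared with 9.84% of the others. Endoplasmic reticulum terms were listed for 25 members (10.4%) and 3.51% of the others. The remaining lists were less frequent in the members. Terms of the nucleus list were found for 30 members (12.5%, others 20.5%). Of these, 2 entered only through perinuclear region of cytoplasm and 1 only through the process term nuclear transport. Membrane terms were listed for 26 members (10.8%, others 22.1%), mitochondrial terms for 19 (7.92%, others 11.5%) and plastid terms for 18 (7.5%, others 11.1%). The list for cytoskeleton, cilium or flagellum found 1 member, comp1316770_c0_seq1_1 with the centrosome, compared with 5.68% of the others. Its words do not cover pericentriolar material, which was listed for the member comp18441_c0_seq1_3. No cellular component term was listed for 38 members (15.8%) and 16.4% of the others.

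**Figure D3:**
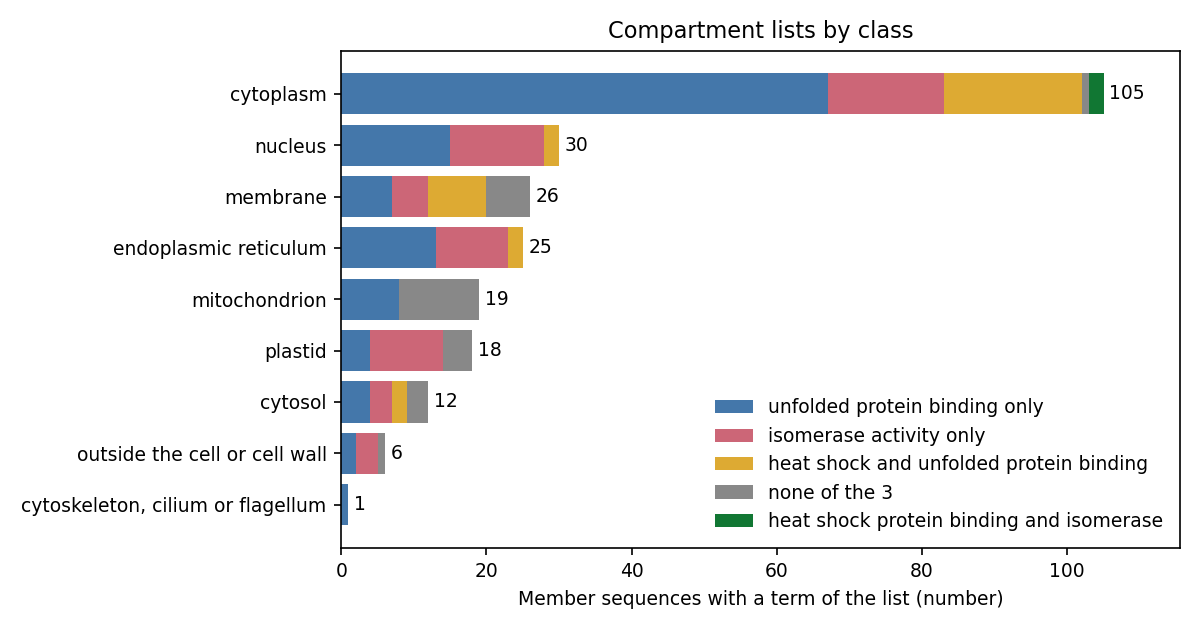
Number of member sequences (x axis) with a term of each compartment list (y axis), coloured by class, with the total beside each bar. A sequence may be in several lists, and cytoplasm with 105 members was followed by the nucleus with 30.

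The classes differed in the organelles they were listed with. Mitochondrial terms were listed for 11 of the 14 members with none of the 3 functions and for 8 of the 129 with unfolded protein binding only, but for 0 of the 57 with isomerase activity only. Plastid terms were listed for 10 of these 57, 4 of the 129 and 4 of the 14. None of the 38 members with heat shock and unfolded protein binding was listed with a plastid or mitochondrial term. More than 1 of plastid, mitochondrion and endoplasmic reticulum was listed for 5 members, and 184 members had none of these. As the table mostly gives a sequence few cellular component terms, a missing organelle term is weak information.

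The lumen of the endoplasmic reticulum, where secreted proteins fold, was listed for 16 members, which was 39.0% of the 41 sequences with this term. They held 4 kinds of folding protein. Calcium ion binding and sugar binding were listed for 8 of them, together with unfolded protein binding. This is the known combination of the lectin chaperones calnexin and calreticulin, which bind the sugars of new glycoproteins. Another member with the same functions was placed in the membrane of the endoplasmic reticulum. No sequence outside the members was listed with both calcium ion binding and sugar binding. Of the other members in the lumen, 4 were prolyl isomerases, 3 had ATP binding with unfolded protein binding, and 1 was the only folding member with protein disulfide isomerase activity and cell redox homeostasis.

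The 14 members without unfolded protein binding, heat shock protein binding or isomerase activity had mostly organelle terms. ATP binding was listed for 13 and protein binding for 12. Copper ion binding was listed for 4 members, and for no folding member outside this group. The pair comp409648_c0_seq1_9 and comp63338_c0_seq1_60 had the same 11 terms, among them the mitochondrial matrix, mitochondrion organization, copper ion binding and responses to heat and cadmium ion. The member without ATP binding was listed with the mitochondrial inner membrane and with mitochondrion inheritance and morphogenesis.

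Stress terms are of interest because chaperones are known as heat shock proteins. Response to stress was listed for 42 members (17.5%) of 118 sequences in the table, and response to heat for 30 (12.5%) of 56. Thus, folding members were 35.6% and 53.6% of the sequences with these terms. The terms were listed together for 0 members, so 72 members had either one. Response to stress went with unfolded protein binding in 35 members and was listed for 0 members with heat shock protein binding. In contrast, response to heat was listed for 24 of the 38 members with heat shock and unfolded protein binding, and for 0 of the 129 with unfolded protein binding only. In that class, 2 members had the term cellular response to heat and 2 had heat acclimation. Response to unfolded protein was listed for 6 members and 3 other sequences. Stress terms are assigned by sequence similarity and are no measure of induction by JA or SA.

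**Figure D4:**
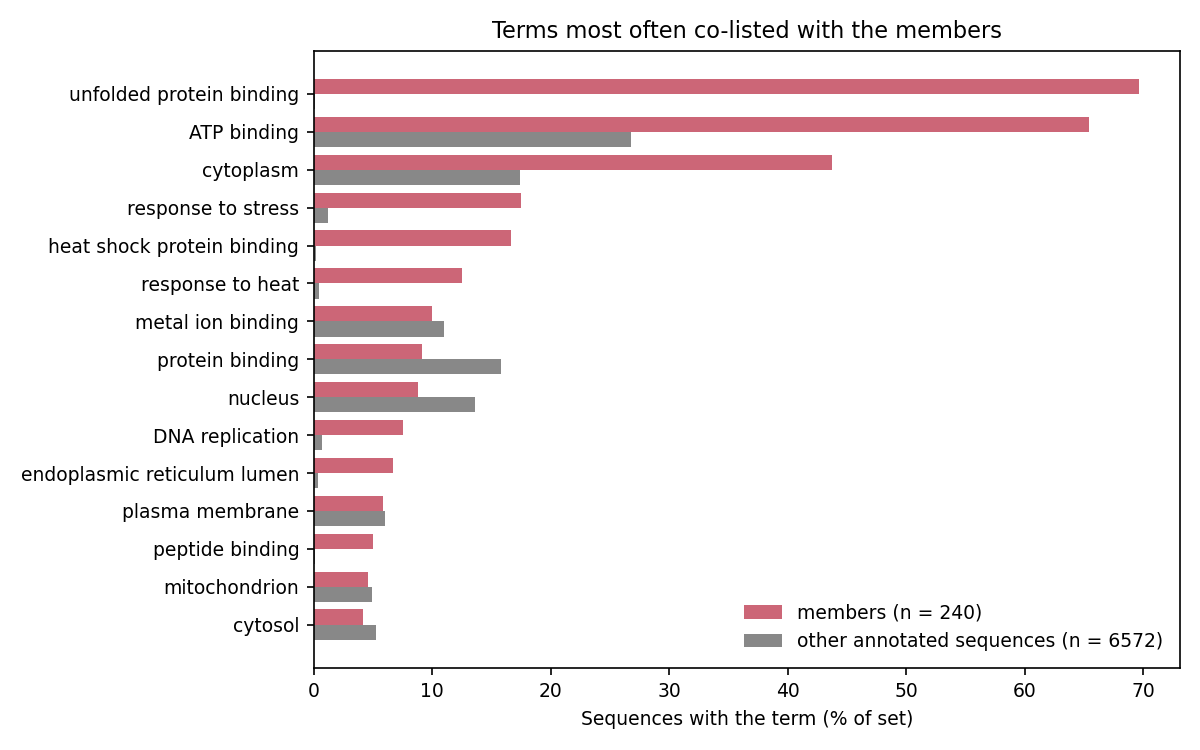
Share of sequences (x axis, in percent of each set) listed with the 15 terms most frequent among the members apart from the terms of the word rule (y axis), for the 240 members and the 6572 other annotated sequences. Unfolded protein binding was listed for 69.6% of the members and 0.0913% of the others, whereas plasma membrane was listed for 5.83% and 5.96%.

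A few members had terms for many places at once. After the prolyl isomerase with 18 terms, the most terms were listed for comp426862_c0_seq1_3 with 16, which named the chloroplast, the mitochondrion, the lumen of the endoplasmic reticulum, the nucleus, the vacuole and the plasma membrane. The sequences comp63284_c0_seq1_11 and comp63284_c3_seq2_36 had the same 14 terms, including heat acclimation, protein stabilization and response to water deprivation. In general, though, the members were sparsely annotated. They had a median of 4 terms (quartiles 4 and 6), compared with 5 (quartiles 4 and 7) for the other sequences, and 119 members (49.6%) had 5 or more terms, compared with 61.8% of the others.

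The numbers that Trinity gave to components fall into a low and a high part in this table, and the members lay in both. A component number above 100000 was found for 128 members (53.3%) and 50.2% of the other sequences. The share differed between classes. It was 63.6% for unfolded protein binding only, 43.9% for isomerase activity only and 39.5% for heat shock with unfolded protein binding. These are shares of sequences. In that order, 82, 25 and 15 sequences were above 100000, and the classes came from 126, 50 and 35 components. The 7 components with several members were all below 100000, so their repeated sequences lower these shares. By profile, 32 of the 40 sequences with ATP binding, cytoplasm, protein folding and unfolded protein binding were above 100000, and so were 8 of the 9 refolding members and all 6 with the term phagocytic vesicle. All 7 members with chloroplast thylakoid lumen were below 100000, and the 1 member with the separate term thylakoid lumen, comp1385131_c0_seq1_2, was above. With plastid terms of any kind, 38.9% of the members and 27.1% of the other sequences were above 100000. With any term of isomerase activity the shares were 42.4% and 59.6% (47 others). They were 37.5% and 41.7% (12 others) with heat shock protein binding, and 58.1% and 16.7% (6 others) with unfolded protein binding. The matching shares of the others are not given here for the profiles, phagocytic vesicle and the thylakoid lumen. Those counts cannot be called particular to the members. The part played by component number in the class counts was not tested.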

How the data were processed

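Per the study's methods, quality-filtered paired-end Illumina reads of 7 libraries went into a Trinity assembly. Open reading frames came from GetORF, protein matches from Blastp and GO terms from GoPipe. The authors deposited a text table of 4 columns (sequence identifier, GO identifier, term name and GO domain) with 39529 lines and no values per sample, so the planned comparison of values per sample was not run. The version of the GO vocabulary is not given in the sources used here.

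Members were identifiers with a term name that contains any of the 4 phrases, without regard to case. Classes, compartments and processes were found by word lists on the term names. A term was counted only where the table lists it, and parent terms were not added. The members, word lists and the boundary at component number 100000 were chosen with earlier results of these data known. The identifiers named are, by a rule, the 3 with the most terms in each class, the 5 with the most terms, those of components with 3 or more members, and any that alone carries a compartment. The component comp62209_c1 and the groups of 5 or fewer members described by other terms were chosen after their values were seen. None of the member identifiers (0) was found in a table of 30548 *Haematococcus lacustris* reference genes, so no gene name or sequence was taken from it. Only names were compared, and Trinity names differ in kind from gene names. The count of 0 thus does not show that these genes are absent from the reference. The finding of members and of their classes was tested on simulated data with planted terms. The other counts were not tested in this way. Python 3.11.15 and Matplotlib 3.10.9 were used.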

Additional observations from a re-analysis of the deposited data

How the results depend on the processing

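Of 61 values under the alternatives, 57 stayed within 1.5 times the reported count and 4 moved. Of the 61, 31 used 1 count per Trinity component, which removes few sequences. Most values thus had little room to move, and the number that stayed is no measure of robustness. The number of members was 227 with 1 count per Trinity component, 230 for the term protein folding itself, 240 without the prolyl isomerase phrase and 277 with a wider chaperone vocabulary. Keeping only members with 5 or more terms moved unfolded protein binding from 167 to 85 members, isomerase activity from 59 to 22 and cytoplasm from 105 to 43, since it keeps 119 of the 240 members by construction. With 1 count per component, response to unfolded protein went from 6 to 3, because 4 of the 6 are from 1 component. Boundaries at 80000 and 200000 gave 128 and 126 members above. No paired analysis was possible because the table pools the libraries and no test between samples was made. Sequencing depth and contig length cannot be read from the table.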

Other observations

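The wider folding vocabulary reached 37 sequences outside the members. Protein disulfide isomerase activity was listed for 11 sequences, of which 1 was a member. The other 10 were all listed with cell redox homeostasis and the lumen of the endoplasmic reticulum, but not with protein folding, and 4 of them were listed with nematode larval development. A count of the folding machinery by the word rule thus leaves out nearly all sequences with this catalyst of disulfide bonds.

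Heat shock protein binding was listed for 12 sequences outside the members. Of these, 2 were listed with GTP binding, 2 with response to unfolded protein, and 3 had no other term. Unfolded protein binding was listed for 6 sequences outside the members. These included 2 with metalloendopeptidase activity, 2 with RNA binding and 1 with tubulin complex assembly. The term endoplasmic reticulum unfolded protein response, the signalling that reports misfolded protein from that organelle, was listed for 3 sequences, none of them a member.

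Some members were listed with terms from word lists made for animals, land plants or slime moulds. These lists were chosen after the terms had been seen. The animal list, which held nematode larval development, melanosome and locomotion among others, was found for 8 members (3.33%, others 3.80%). Locomotion, which also fits swimming algae, was the only such term of 2 of these 8. The slime mould list, which held phagocytic vesicle and sorocarp morphogenesis among others, was found for 8 members (3.33%, others 1.93%). Phagocytic vesicle, which is not limited to slime moulds, was the only such term of 5 of these 8. Land plant terms such as flower development and root development were listed for 5 members (2.08%, others 1.75%). Together these lists were found for 21 members (8.75%) and 7.49% of the others. Of the 21 members, 16 had a component number above 100000. The matching share of the other sequences with such terms is not given here, so this count cannot be called particular to the members.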
